A study of Mus musculus with 12 samples.

Results

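The genes described here encode the proteins of the cytosolic ribosome, and their RNA was followed in mouse cells with and without repression of a metabolic cycle. They were chosen by name alone, as all genes with a symbol of the form Rpl or Rps plus a number (with an a, l or x after it where there is one), together with Rplp0 to Rplp2 and Rpsa, and without Rps27l. The rule found 82 of the 57180 genes in the deposited tables. Of these, 80 had a mean counts-per-million (CPM) value of at least 1 over all 12 libraries and are reported, 31 of the small (40S) and 49 of the large (60S) subunit. Rpl32l, with 18.4 counts over all libraries, and Rpl6l, with 75.4, lay under the limit, and Rpl3l, with 217 counts and a mean of 1.15 CPM, was the nearest gene inside it. All libraries came from an E14 mouse embryonic stem cell (ESC) line, derived from 1 chosen clone, that holds a doxycycline (DOX) inducible CRISPR interference repressor in the Tigre locus. Scramble guide RNAs are expressed in the control line (Neg), and the 3xKD line has guides for repression of Pcx, Me1 and Me2, which encode pyruvate carboxylase and malic enzymes. Both lines received DOX according to the study. Each was sequenced as ESCs, kept in N2B27 medium with 2i and LIF, and as epiblast-like cells (EpiLCs) on day 2 of induction with Fgf2, Activin A and XAV939, so that there were 4 groups (Neg ESCs, 3xKD ESCs, Neg EpiLCs and 3xKD EpiLCs) of 3 libraries each. The sample titles set the groups, since the field for cell type calls each of the 6 Neg libraries ESCs and each of the 6 3xKD libraries EpiLCs. Neg and 3xKD are separately derived lines, so effects of the guides and other differences between the lines cannot be told apart.

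A ribosome reads messenger RNA and joins amino acids into protein. Its 40S subunit decodes the message, and its 60S subunit forms the peptide bond and holds the tunnel through which the new chain leaves. The subunits need nearly equal amounts of each protein, and the mRNAs of these proteins share an unusual start: a C followed by a run of pyrimidines, called a 5′ terminal oligopyrimidine (TOP) motif, through which mTORC1 and Larp1 control their translation. ESCs and the epiblast grow quickly and make many ribosomes, and RNA level alone does not give the rate at which these mRNAs are translated.

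The starts of 6 genes to which the results below return are shown as RefSeq gives them, with 10 bases before and 20 bases from the annotated start. The promoter sequences were those of the GRCm38.p6 RefSeq annotation, and each was placed in GRCm39, the build of the deposited tables, by an exact match. Capitals mark a C and the C or T run after it, of at least 4 more bases, where this run begins within 5 bases of the annotated start. The first 2 genes begin with such a run, at Rpl35a on chr16:32876842-32876871 (plus strand) and Rps10 on chr17:27854199-27854228 (minus strand). Rpl12 on chr2:32851714-32851743 (plus strand) and Rps2 on chr17:24939027-24939056 (plus strand) hold one a few bases downstream, and Rpl24 on chr16:55786628-55786657 (plus strand) and Rpl10l on chr12:66331156-66331185 (minus strand) hold none in that span.
Rpl35a: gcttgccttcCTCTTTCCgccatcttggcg
Rps10: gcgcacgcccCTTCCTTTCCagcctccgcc
Rpl12: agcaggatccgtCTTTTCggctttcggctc
Rps2: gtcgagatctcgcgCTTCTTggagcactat
Rpl24: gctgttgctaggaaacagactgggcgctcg
Rpl10l: cctccattttgcggctggcggtgggcacgc
Rpl35a has 3 annotated starts in that table, and the run was found at 1 of them.

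Promoter windows, from 250 bases before to 50 after the annotated start, were given for 59 of the 80 genes and for 27025 genes in all. A TOP start at the annotated first base was found in 13 of the 59 (22.0%), against 3.01% of all genes with a window, and a run within 5 bases of the start in 27 (45.8%, against 21.2%). On either strand, CCGGAAG, the core that Ets factors such as Gabpa bind, was found for 24 genes (40.7%, against 9.93%), and TCTCGCGA for 10 (16.9%, against 1.13%). AAGATGGC, the core of Yy1 sites, was found for 5 (8.48%, against 3.19%), and TATAAA, the TATA box, for 6 (10.2%, against 15.7%). CCGGAAG and AAGATGGC share the letters AAG, so that 1 stretch can hold both. Such matches describe these letters in these windows, and a start that is annotated a few bases off hides a TOP motif from the search.

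The libraries held between 11221023 and 19652197 estimated counts. Each targeted gene was lower in both 3xKD groups than in the Neg group of the same state without overlap: Pcx was at 35.7 to 36.8 CPM in Neg ESCs and 16.2 to 16.8 in 3xKD ESCs, with log2 fold changes of -1.14 for Pcx, -0.89 for Me1 and -0.95 for Me2 in ESCs and -1.05, -1.05 and -0.98 in EpiLCs. Summed over 7 naive pluripotency markers, levels ran from 5045 to 5202 CPM in Neg ESCs, 3941 to 4015 in 3xKD ESCs, 306 to 321 in Neg EpiLCs and 453 to 468 in 3xKD EpiLCs. The sum over 5 formative markers ran from 125 to 126, 103 to 113, 1944 to 2238 and 922 to 944 CPM in the same order, so the labelled states were borne out, and 3xKD EpiLCs held more naive and less formative marker RNA than Neg EpiLCs. Markers of other cells were lower in sum and moved between groups. In the same order of groups, 3 of neuroectoderm ran from 8.31 to 10.99, 6.46 to 8.95, 72.7 to 75.4 and 25.6 to 30.3 CPM, and 5 of trophoblast from 64.9 to 69.0, 75.1 to 84.4, 24.2 to 25.4 and 30.5 to 35.9 CPM. The trophoblast genes parted between Neg and 3xKD ESCs. Tfap2c (means of 38.8 and 47.1 CPM), Eomes (23.6 and 25.9) and Krt7 (1.04 and 4.77) were higher in 3xKD ESCs. Cdx2 (2.86 and 0.50) was lower there, and Elf5 was at 0.09 and 0.08. For 5 of primitive endoderm the sums were 20.1 to 23.2, 27.6 to 30.1, 23.3 to 27.8 and 17.6 to 19.5 CPM, and 3 of mesoderm held 0.336 to 2.29 CPM in all groups. The part of these differences in the results below was not tested, and in bulk RNA fewer cells of a type and less RNA per cell cannot be told apart. The study's methods name biological triplicates, and the p-values measure the spread between these libraries.

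Together the 80 genes took a slightly larger share of all counts in 3xKD than in Neg cells. The share was 4.89 to 5.14% in Neg ESCs (mean 4.99 ± 0.13, SD, n = 3) and 5.32 to 5.41% in 3xKD ESCs (mean 5.35 ± 0.048). In EpiLCs it was 4.66 to 4.86% in Neg (mean 4.74 ± 0.105) and 5.03 to 5.18% in 3xKD cells (mean 5.09 ± 0.0814). The groups of the same state did not overlap. On the transcripts-per-million (TPM) scale, which divides by transcript length, the 3xKD mean was the lower one in both states. The mean shares were 7.73% in Neg ESCs, 7.62% in 3xKD ESCs, 8.94% in Neg EpiLCs and 8.29% in 3xKD EpiLCs. Here the groups of the same state overlapped, so these means set no direction. The shares were 7.01, 9.22 and 6.95% in Neg ESCs and 6.66, 8.14 and 8.05% in 3xKD ESCs. In EpiLCs, 3xKD replicate 1 (9.23%) lay above every Neg library (highest 9.18%). The 3xKD EpiLCs replicates 2 (8.05%) and 3 (7.58%) lay below every Neg EpiLC library. The abundant small RNA Rn7s1 took between 15.2 and 29.7% of TPM, and its part in the difference between the scales was not tested. CPM values and folds below therefore compare 1 gene between libraries, and only TPM are used to compare genes.

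On the TPM scale the genes were far from equal. Rpl41, the smallest protein of the ribosome, was highest with a mean over all libraries of 3011 TPM, followed by Rpl13a (2743), Rps28 (2358), Rplp1 (2090) and Rps2 (1986). Rpl13a ran from 1905 to 4051 TPM between libraries, and protein-coding transcripts held 21.5 to 24.8% of its counts by group. Paralogs of other members made up most of the lowest levels. Rpl3l, the muscle form of Rpl3, was at 0.8 TPM (lowest library 0.5, highest 1.7), Rpl39l, a testis form of Rpl39 that lies in the exit tunnel, at 71.6, Rpl10l, the testis copy of the X-linked Rpl10, at 104, and Rps4l, an autosomal relative of Rps4x, at 179. Rpl29 followed with 292 TPM. Paralogs and the many processed pseudogenes of this family share sequence, so the estimated counts of Rps4l, Rpl10l and Rpl39l depend on how reads were divided among copies. Replicates were close: the median coefficient of variation of CPM over the genes was 3.88% in Neg ESCs, 2.08% in 3xKD ESCs, 5.32% in Neg EpiLCs and 4.47% in 3xKD EpiLCs.

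**Figure D1:**
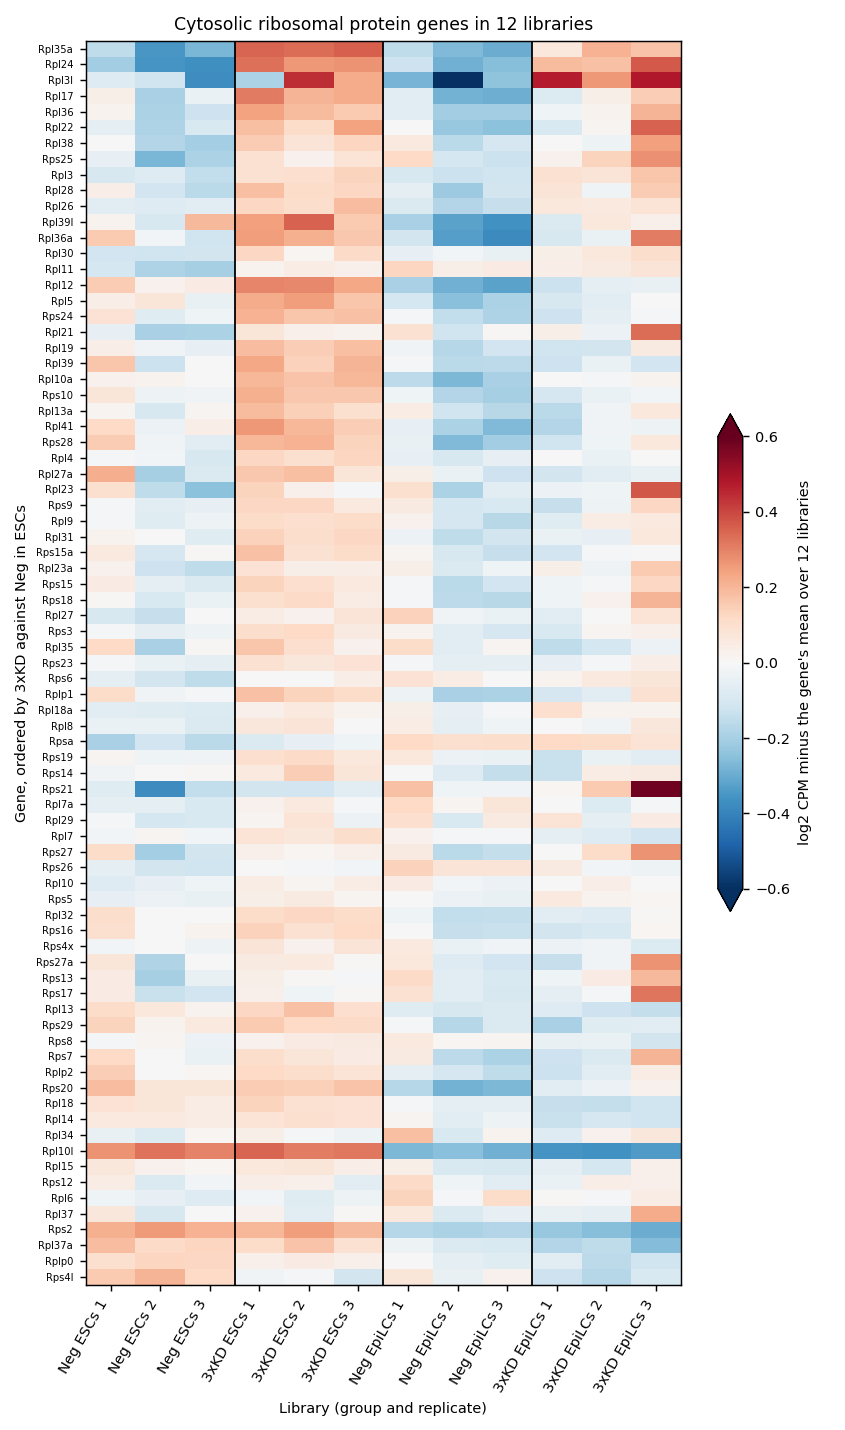
Log2 CPM of 79 of the 80 genes (rows) in each library (columns, by group and replicate), minus the gene's mean over the 12 libraries, with red above and blue below that mean. The rows are ordered by the 3xKD against Neg difference in ESCs, from Rpl35a (0.61) at the top to Rps4l (-0.21) at the bottom, and 3xKD EpiLCs replicate 3 is seen to stand above the rest of its group for many genes.

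Between 3xKD and Neg ESCs the differences were small and mostly upward. With the adjusted p under 0.01, 20 of the 80 genes rose in 3xKD ESCs (background 15.6% of the 25446 genes tested) and 1 fell (background 16%). The log2 fold change was above 0 for 75 of the 80, beside 13097 of the 25446 genes tested and 1093 of the 2300 genes of at least 100 CPM. Its median over the 80 was 0.12, beside 0.03 over all genes tested and -0.02 over those 2300. With a log2 fold change above 0.58 in addition, 2 of the 80 were called higher, Rpl35a and Rpl24 (background 8.5%). By edgeR 0 were called lower with this limit (background 6.76%), where the unadjusted p under 0.05 and DESeq2 also gave 0. The 3 libraries of each group did not overlap for 50 genes that were higher in 3xKD (background 25.2%) and for 2 that were lower (background 23.8%). Within the 60S list 16 of 49 rose and 0 fell by edgeR (1, Rplp0, was lower at an unadjusted p under 0.05 and by DESeq2), with a median of 0.15. Within the 40S list 4 of 31 rose and 1 fell, with a median of 0.10. The difference between the subunits was not tested. The count of 20 moved to 12 without Neg ESCs replicate 3 and to 41 without Neg EpiLCs replicate 1, which shares the fit but not the comparison. In the latter case all genes tested moved as well, from 3982 higher and 4066 lower (median 0.026) to 4315 and 3780 (median 0.060). Among the 2300 genes of at least 100 CPM, 685 rose and 796 fell, so that 64.4% passed the adjusted p in either direction, against 26.3% of the ribosomal protein genes.

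Rpl35a and Rpl24, both proteins of the 60S subunit, showed the largest differences. Rpl35a, a gene mutated in Diamond-Blackfan anemia, was at 291, 254 and 268 CPM in Neg ESCs and 413, 409 and 415 CPM in 3xKD ESCs. The lowest 3xKD library lay well above the highest Neg library, and the log2 fold change was 0.61 (SE 0.05, adjusted p = 4.41e-08). Rpl24, which forms a bridge to the 40S subunit and whose mutation gives the Belly spot and tail mouse, was at 341, 309 and 305 CPM in Neg ESCs and 495, 472 and 475 CPM in 3xKD ESCs. Its groups did not overlap either, with a log2 fold change of 0.60 (SE 0.06, adjusted p = 2.29e-07). Both lay near the fold limit: without Neg ESCs replicate 2 Rpl35a was at 0.56 and Rpl24 at 0.57, so neither was called, and without Neg ESCs replicate 3 Rpl24 was at 0.56 and Rpl35a alone was called.

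Both genes lie on chromosome 16 (Rpl35a at chr16:32876630-32880559 and Rpl24 at chr16:55786638-55791798, GRCm39), and so does Rpl39l. The other 451 genes tested on chromosome 16 had a median log2 fold change of 0.30 between 3xKD and Neg in ESCs, 74.3% of them above 0, and 0.30 in EpiLCs, 76.9% above 0. The medians of the other chromosomes lay between -0.05 and 0.06. Within 500 kb of Rpl35a, 11 of 12 such neighbours were above 0 in ESCs (median 0.38) and 12 of 12 in EpiLCs (median 0.35). Around Rpl24 the neighbours were mixed, with 5 of 9 above 0 in ESCs (median 0.12) and 4 of 9 in EpiLCs (median -0.05). Around Rpl39l, 3 of 8 were above 0 in ESCs (median -0.25) and 5 of 8 in EpiLCs (median 0.37). Rpl39l itself was at 0.21 in ESCs and 0.30 in EpiLCs. Less the chromosome median, the log2 difference of Rpl35a was 0.31 in ESCs and 0.09 in EpiLCs, and that of Rpl24 was 0.30 in ESCs and 0.17 in EpiLCs. The part of the chromosome-wide difference in these 2 calls and in the one of Rpl39l in EpiLCs was not tested. Without the 3 genes of chromosome 16, an alternative chosen after seeing the data, the ESC comparison gave 18 genes higher, 0 of them past the fold limit, and the median stayed at 0.12. The EpiLC comparison then gave 9 higher and 1 lower, with a median of 0.05.

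**Figure D2:**
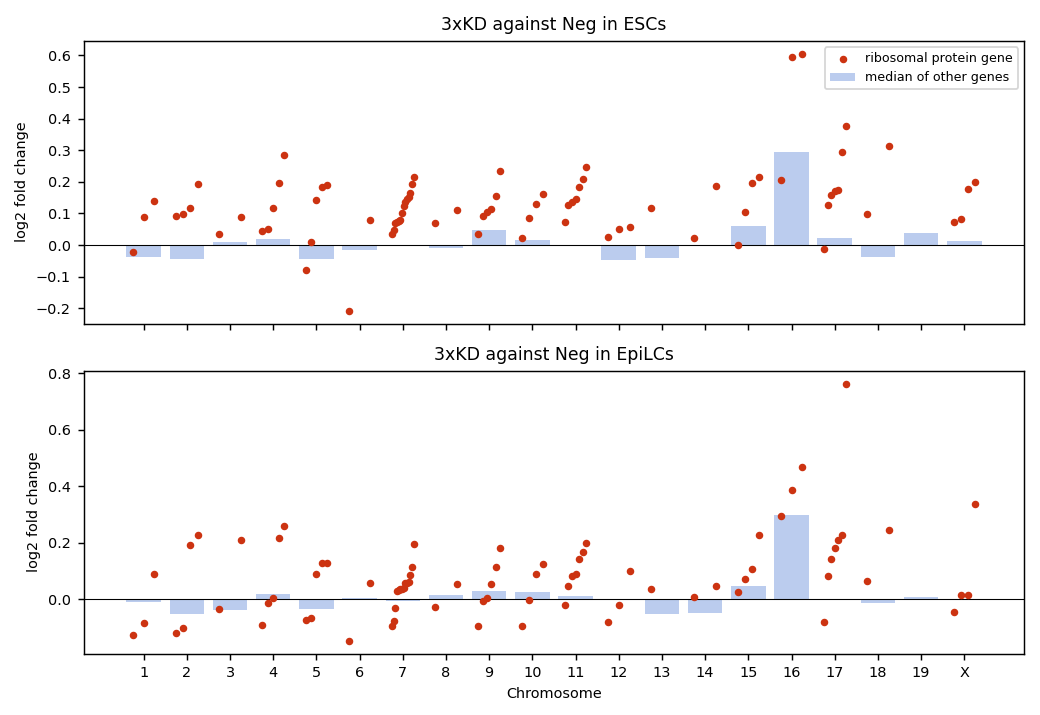
Log2 fold change of 3xKD against Neg in ESCs (top) and EpiLCs (bottom) by chromosome, with a point for each ribosomal protein gene and a bar, drawn from 0, for the median of the other genes of at least 1 CPM on that chromosome. Chromosome 16 is the one with a raised bar (0.30 in both states), and it holds Rpl35a and Rpl24, the highest points in ESCs.

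The other genes that rose in ESCs moved by 0.31 or less on the log2 scale. Rpl17, at the tunnel exit, was at 478, 407 and 453 CPM in Neg ESCs and 579, 538 and 544 CPM in 3xKD ESCs (log2 fold change 0.31, SE 0.07, adjusted p = 0.00136). Rpl36 was at 287, 249 and 260 CPM in Neg and 334, 324 and 316 CPM in 3xKD ESCs (0.29, SE 0.06, adjusted p = 0.000781). Rpl38, whose loss gives the Tail short mouse, was at 200.1, 177 and 174 CPM in Neg and 223, 211 and 219 CPM in 3xKD ESCs (0.25, SE 0.07, adjusted p = 0.00968), and its p lay just inside the limit. The Rpl38 call was lost under 10 alternatives, among them RLE factors, transcript-length offsets and robust estimation. For Rpl17, Rpl36 and Rpl38, Neg replicate 1 was the highest of its group and still under every 3xKD library. Rpl3, which lies near the peptidyl transferase center, was tighter, at 1047, 1061 and 1010 CPM in Neg and 1191, 1200 and 1227 CPM in 3xKD ESCs (0.22, SE 0.03, adjusted p = 5.37e-05). Among the remaining 14 were Rpl28, Rpl26, Rpl30, Rpl11, Rpl12, Rpl5, Rps24, Rpl19, Rpl10a, Rps10, Rpl4, Rpl31 and Rps23, from 0.21 for Rpl28 down to 0.12 for Rps23.

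The gene that fell was Rps4l, at 330.0, 341 and 321 CPM in Neg ESCs and 291, 293 and 274 CPM in 3xKD ESCs, without overlap (log2 fold change -0.21, SE 0.04, adjusted p = 0.000362). Rplp0, the scaffold of the P-stalk and a common reference gene for quantitative PCR, was at 1212, 1238 and 1237 CPM in Neg and 1159, 1175 and 1159 CPM in 3xKD ESCs. Its groups did not overlap, but its log2 fold change of -0.08 did not pass the test (adjusted p = 0.0744). Rpl3l had a log2 fold change of 0.38 with an SE of 0.27 (adjusted p = 0.306) at about 1 CPM, so a difference was not detectable at this depth.

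**Figure D3:**
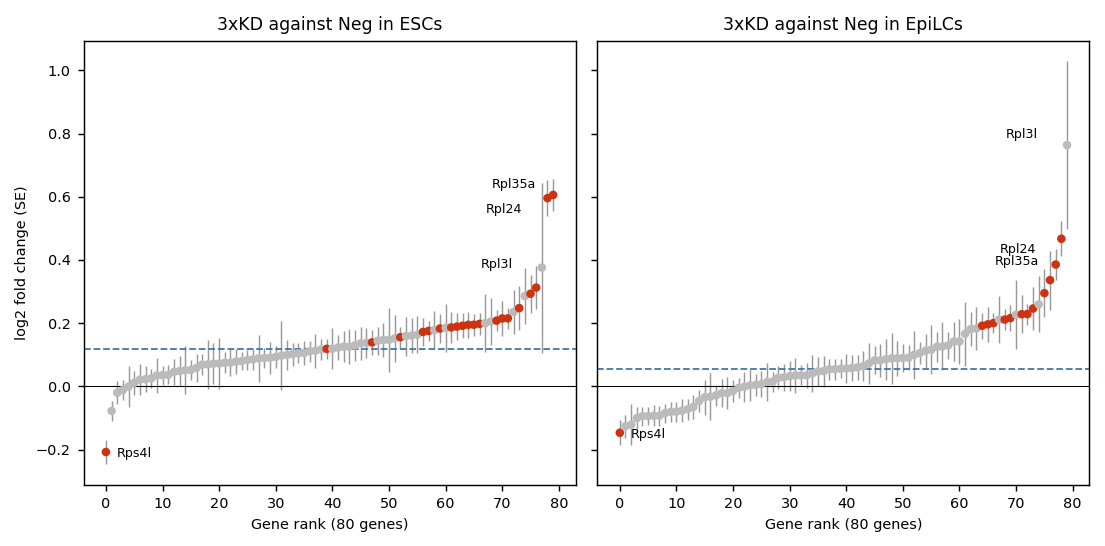
Log2 fold change (points) with its standard error (bars) of 3xKD against Neg for the 80 genes, ranked within ESCs (left) and EpiLCs (right), in red where the adjusted p was under 0.01, with the median as a dashed line. The median lies at 0.12 in ESCs and at 0.06 in EpiLCs, and the wide bar of Rpl3l comes with its level of about 1 CPM.

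In EpiLCs fewer genes passed the test. Of the 80, 12 rose in 3xKD EpiLCs (background 14.3%) and 1 fell (background 15.6%), while DESeq2 gave 12 higher and 8 lower. The median log2 fold change was 0.06, beside 0.03 over all genes tested and -0.11 over the genes of at least 100 CPM. Above 0 were 57 of the 80, beside 13165 of the 25446 genes tested and 831 of the 2300 of at least 100 CPM. By edgeR 0 were called higher with the fold limit (background 7.88%), where an unadjusted p under 0.05 gave 1, Rpl3l, and DESeq2 gave 0. In the lower direction 0 were called (background 5.35%), also 0 at the unadjusted p and 0 by DESeq2. Groups did not overlap for 16 genes that were higher in 3xKD (background 24.1%) and 11 that were lower (background 23.1%). Of the 40S list 1 rose and 1 fell, and of the 60S list 11 rose. Among the 2300 genes of at least 100 CPM, 482 rose and 1070 fell, so that 67.5% passed the adjusted p, against 16.3% of the ribosomal protein genes.

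Rpl24 again led, at 362, 323 and 331 CPM in Neg EpiLCs and 449.5, 445 and 509 CPM in 3xKD EpiLCs (log2 fold change 0.47, SE 0.06, adjusted p = 3.85e-06). Rpl35a was at 291, 270 and 263 CPM in Neg and 339, 374 and 364 CPM in 3xKD EpiLCs (0.39, SE 0.05, adjusted p = 8.28e-06). In both genes every 3xKD library was above every Neg library. Rpl36a, a 60S protein with a near-identical copy in Rpl36al, was at 149, 128 and 124 CPM in Neg and 150.5, 157 and 199 CPM in 3xKD EpiLCs (0.34, SE 0.09, adjusted p = 0.00824), and 3xKD replicate 3 lay far above the other 2. This call was lost under 11 alternatives, among them DESeq2, robust estimation and leaving out 3xKD EpiLCs replicate 3. Rpl39l was at 35.6, 32.6 and 31.6 CPM in Neg and 38.3, 42.5 and 41.6 CPM in 3xKD EpiLCs (0.30, SE 0.08, adjusted p = 0.00481). The Rpl39l call was lost under 5 alternatives. These were transcript-length offsets and leaving out Neg EpiLCs replicate 2, Neg EpiLCs replicate 3, 3xKD EpiLCs replicate 2 or 3xKD EpiLCs replicate 3. The other genes of chromosome 16, where Rpl39l lies, had the same median of 0.30 in this comparison. Rpl17 was at 446, 383 and 380 CPM in Neg and 441, 478 and 516 CPM in 3xKD EpiLCs, so that its lowest 3xKD library lay under the highest Neg library although the test passed (0.25, SE 0.07, adjusted p = 0.00852). That call was lost under 12 alternatives, among them DESeq2, robust estimation and 8 of the libraries left out in turn. Rpl3, Rpl36, Rps20, Rpl10a, Rpl26, Rpl28 and Rpl12 rose by 0.19 to 0.23. Rps4l fell, from 311, 287 and 301 CPM to 271, 262 and 278 CPM (-0.15, SE 0.04, adjusted p = 0.00646). Rpl3l, at 0.9, 0.7 and 0.9 CPM in Neg and 1.6, 1.3 and 1.6 CPM in 3xKD EpiLCs, did not overlap but missed the limit (0.76, SE 0.27, adjusted p = 0.0321).

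The median in EpiLCs rested on few libraries. The 3xKD EpiLCs replicate 3 was the highest of its group for 58 of the 80 genes, by up to 0.33 on the log2 scale over its group mean for Rps21, and Neg EpiLCs replicate 1 was the highest of its group for 76. Without 3xKD replicate 3 the median difference was 0.01, and without Neg replicate 1 it was 0.10. In Neg ESCs replicate 1 was the highest for 60 genes.

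Across both states, 9 genes rose in 3xKD in each (Rpl10a, Rpl12, Rpl17, Rpl24, Rpl26, Rpl28, Rpl3, Rpl35a and Rpl36, all of the 60S subunit), Rps4l fell in each, and 0 passed in opposite directions. These are 11.3% and 1.25% of the 80, beside 9.63% higher in both, 10.5% lower in both and 1.22% opposite among all genes tested, and 17.0%, 29.1% and 3.78% among those of at least 100 CPM. The comparisons share the lines but no library. A further 11 passed in ESCs and 3, Rpl36a, Rpl39l and Rps20, in EpiLCs, and 56 passed in neither (70.0% of the 80, beside 59.8% of all genes tested and 18.1% of those of at least 100 CPM). The test of the difference between states (the 3xKD effect in EpiLCs minus that in ESCs) is the one that speaks to a change between them. By edgeR 0 genes passed it with a higher effect in EpiLCs (background 4.76%), where an unadjusted p under 0.05 and DESeq2 each gave 1, Rps20, and 2 passed with a lower one (background 5.27%), Rpl11 and Rpl7, where the unadjusted p gave 16 and DESeq2 8. The median difference was -0.07, beside -0.00096 over all genes tested and -0.09 over the 2300 genes of at least 100 CPM. Rpl11, which joins Rpl5 and 5S rRNA in the particle that binds Mdm2 and stabilizes p53, was at 538, 510 and 504 CPM in Neg ESCs, 588, 598 and 591 in 3xKD ESCs, 633, 593 and 600 in Neg EpiLCs and 596, 601 and 611 in 3xKD EpiLCs. The groups stood apart in ESCs and overlapped in EpiLCs, and the difference between states was -0.21 (SE 0.05, adjusted p = 0.00643). Rpl7, another 60S protein, was at 1018, 1040 and 1018 CPM in Neg ESCs, 1089, 1077 and 1107 in 3xKD ESCs, 1046, 1021 and 1022 in Neg EpiLCs and 989, 975 and 948 in 3xKD EpiLCs. It was higher in 3xKD ESCs and lower in 3xKD EpiLCs without overlap. By edgeR it passed the adjusted p in neither state alone, while DESeq2 had it among its 8 lower genes in EpiLCs. The difference between states was -0.17 (SE 0.04, adjusted p = 0.00923). Neither passed without Neg ESCs replicate 2 or 3, 3xKD ESCs replicate 2 or 3, Neg EpiLCs replicate 3 or 3xKD EpiLCs replicate 2, each left out alone, whereas 4 genes passed without Neg EpiLCs replicate 1, 4 without Neg EpiLCs replicate 2 and 6 without 3xKD EpiLCs replicate 3.

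**Figure D4:**
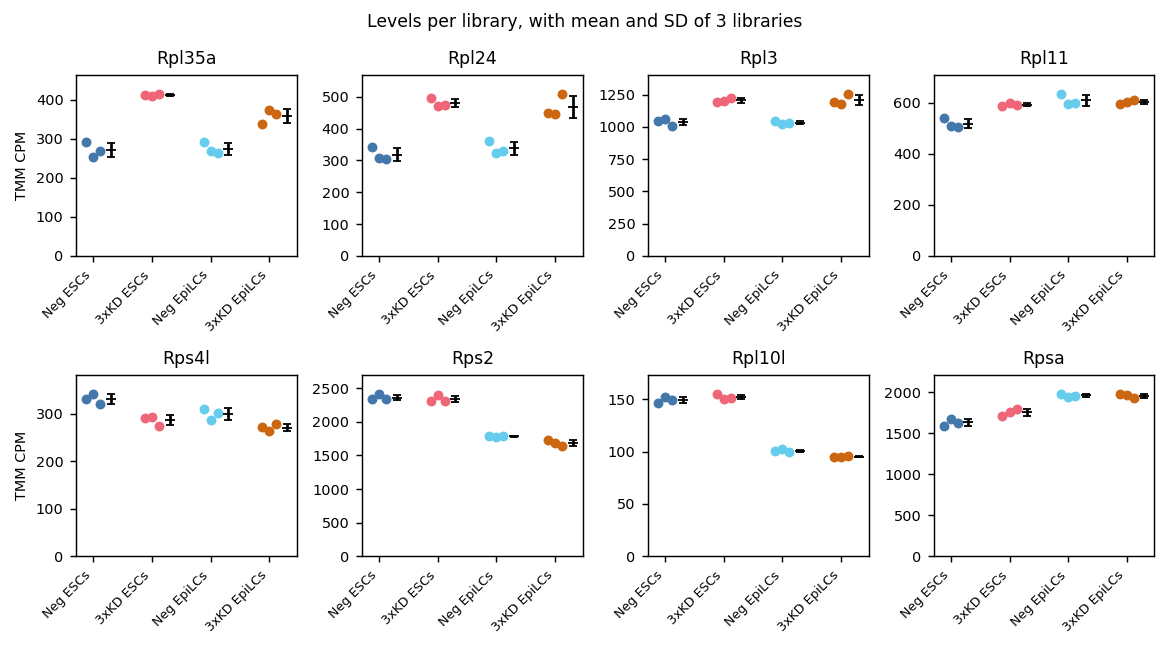
TMM-normalized CPM of 8 genes in each library (colored points, in replicate order from left to right), with the mean and SD of the 3 libraries of each group in black and axes that start at 0. Rpl35a, Rpl24 and Rpl3 are higher in 3xKD in both states, Rps4l is lower in 3xKD, Rps2 and Rpl10l are lower in EpiLCs and Rpsa is higher in EpiLCs.

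The ESC to EpiLC transition was compared within each line. In Neg cells 6 genes rose (background 17.5%) and 15 fell (background 18.2%), with a median of -0.03 beside 0.01 over all genes tested. This split depended on scaling: it was 15 higher and 6 lower with upper-quartile factors, 7 and 10 with RLE factors, and 6 and 5 with transcript-length offsets. Over all genes tested it moved as well, from 4446 higher and 4635 lower (median 0.01) to 5355 and 3989 with upper-quartile factors (median 0.09). With the fold limit 0 were called in either direction by edgeR (background 9.78% higher and 11% lower), as at an unadjusted p under 0.05 and by DESeq2. Groups did not overlap for 10 genes that were higher in EpiLCs (background 26.2%) and 20 that were lower (background 25.5%). In 3xKD cells 1 gene rose, Rpsa (background 15.9%), and 24 fell (background 17.9%), with a median of -0.10 beside 0.01, and upper-quartile factors gave 4 higher and 14 lower (4859 and 3863 of all genes tested, from 4052 and 4550). With the fold limit 0 were called higher by edgeR (background 9.42%), as at the unadjusted p and by DESeq2, and 1, Rpl10l, was called lower (background 9.32%). Here 4 genes were higher (background 25.9%) and 41 lower (background 25.7%) in EpiLCs without overlap.

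Rpl10l moved most in both lines. It was at 147, 153 and 149 CPM in Neg ESCs and 101, 102 and 99.6 in Neg EpiLCs (log2 fold change -0.57, SE 0.03, adjusted p = 1.32e-10), and at 155, 151 and 151 CPM in 3xKD ESCs and 95.3, 94.7 and 96.0 in 3xKD EpiLCs (-0.68, SE 0.03, adjusted p = 1.96e-11). Rps2, a protein near the mRNA entry of the 40S subunit, was at 2339, 2410 and 2335 CPM in Neg ESCs and 1792, 1767 and 1786 in Neg EpiLCs (-0.41, SE 0.03, adjusted p = 1.5e-08). Its values were 2316, 2398 and 2313 CPM in 3xKD ESCs and 1726, 1691 and 1641 in 3xKD EpiLCs (-0.47, SE 0.03, adjusted p = 2.61e-09). For both genes the states were far apart and the lines close together.

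Other genes that fell in Neg cells were Rps20 (-0.35), from 736, 682 and 681 to 577, 533 and 538 CPM, Rpl12 of the P-stalk base (-0.34), from 987, 907 and 919 to 777, 727 and 711 CPM, and Rpl39l (-0.34), from 41.3, 38.1 and 46.6 to 35.6, 32.6 and 31.6 CPM. No EpiLC library of these genes reached an ESC library. The call of Rpl39l was lost under 4 alternatives, among them upper-quartile factors and transcript-length offsets. Rpsa, a 40S protein also known as the laminin receptor, rose from 1589, 1680 and 1627 to 1976, 1947 and 1960 CPM (0.26, SE 0.03, adjusted p = 2.77e-06). Rpl11 (0.23), Rps26 of the mRNA exit channel (0.19), Rps6, the target of S6 kinase (0.15), and Rpl7a (0.14) rose as well. In 3xKD cells the largest falls after Rpl10l and Rps2 were those of Rpl12 (-0.35, adjusted p = 3.01e-06), Rpl37a (-0.32, adjusted p = 1.64e-06) and Rpl39 of the exit tunnel (-0.28, adjusted p = 0.000968), and Rpsa rose by 0.16 (SE 0.03, adjusted p = 0.000747). The call of Rpsa was lost with transcript-length offsets and on protein-coding transcripts alone. The 2 transitions do not share samples with each other, but each shares its libraries with the knockdown comparisons. Over the 4 comparisons 37 of the 80 genes passed in none (46.3%, beside 46.4% of all genes tested and 7.04% of those of at least 100 CPM).

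**Figure D5:**
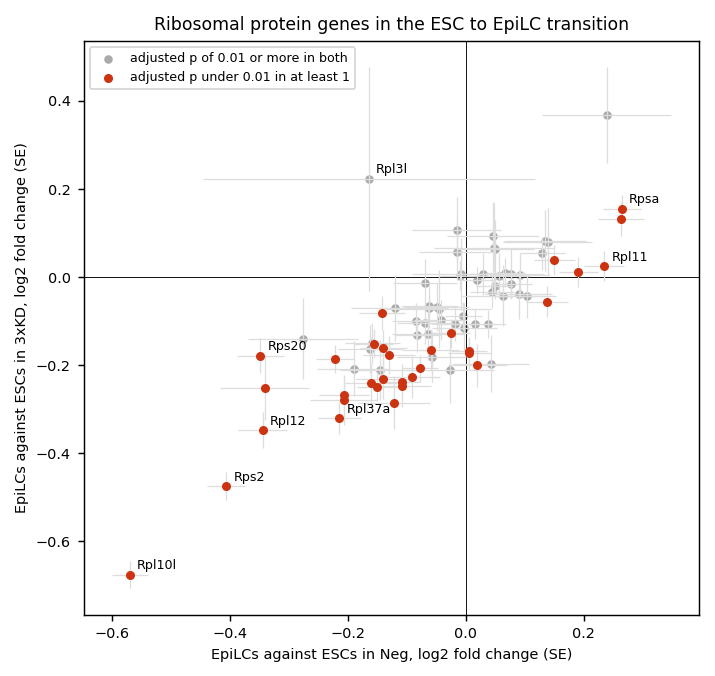
Log2 fold change of EpiLCs against ESCs in Neg (horizontal) and in 3xKD (vertical) for each gene, with standard errors as lines, in red where the adjusted p was under 0.01 in at least 1 line. Rpl10l (-0.57 and -0.68) and Rps2 (-0.41 and -0.47) lie at the lower left, and Rpsa (0.26 and 0.16) at the upper right.

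By their place in the ribosome, the genes were described as lists. Beside these counts stand the shares of all genes tested that rose in 3xKD ESCs (15.6%) and 3xKD EpiLCs (14.3%) and fell in the Neg (18.2%) and 3xKD (17.9%) transitions, and the 64.4% of genes of at least 100 CPM that passed in either direction in ESCs. Of the 4 P-stalk genes, which recruit elongation factors, Rpl12 rose in 3xKD in both states and Rpl12 and Rplp0 fell in the transition in both lines, while Rplp1 and Rplp2 passed in none of these. The 5S particle pair, Rpl5 and Rpl11, rose in 3xKD ESCs (Rpl5 from 720, 736 and 679 to 816, 832 and 786 CPM, 0.19), passed in neither direction in EpiLCs, and parted in the Neg transition, where Rpl11 rose and Rpl5 fell (-0.21). Of 6 proteins at the exit tunnel, Rpl4, Rpl17 and Rpl26 rose in 3xKD ESCs (list median 0.17), and Rpl17 and Rpl26 in 3xKD EpiLCs. Among 10 genes mutated in Diamond-Blackfan anemia, an inherited failure of red cell production, 6 rose in 3xKD ESCs (Rpl35a, Rpl11, Rpl26, Rpl5, Rps24 and Rps10, list median 0.18), 2 rose in 3xKD EpiLCs (Rpl35a and Rpl26), and 5 fell in the 3xKD transition. Of the 4 paralogs Rpl3l, Rpl10l, Rpl39l and Rps4l, Rps4l fell in 3xKD in both states. Rpl39l rose in 3xKD EpiLCs, by about the median of the other chromosome 16 genes (0.30). In the Neg transition Rpl10l, Rpl39l and Rps4l fell. The 13 genes with a TOP start at the annotated first base were set beside the other 46 with a window. In 3xKD ESCs 4 of the 13 rose (median 0.12) and 11 of the 46 (median 0.13), and in the 3xKD transition 4 of the 13 fell (median -0.10) and 16 of the 46 (median -0.11). In 3xKD EpiLCs 2 of the 13 rose (median 0.08) and 6 of the 46 (median 0.04). In the Neg transition 0 of the 13 fell by edgeR (median -0.05) and 11 of the 46 (median -0.05). Differences between genes with and without the TOP start were not tested.

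Genes around the family were read from lists of related function, kept to those of at least 1 CPM. Of all 15032 genes of at least 1 CPM, 3780 rose and 3928 fell in 3xKD ESCs (51.3% passed). In 3xKD EpiLCs 3487 rose and 3888 fell (49.1% passed). In the Neg transition 4051 rose and 4346 fell, in the 3xKD transition 3702 and 4327, and 16.8% passed the difference between states. Of 8 ribosomal protein genes that the naming rule leaves out, 2 rose and 1 fell in 3xKD ESCs, with Fau, which encodes eS30, at 0.33, Rps27l, a target of p53, at 0.21, and Rpl7l1, a nucleolar relative of Rpl7, at -0.56. In 3xKD EpiLCs 3 rose and 2 fell, with Rpl22l1, the paralog of Rpl22, at 0.52 and Rpl7l1 at -0.63. Rps27l differed between states by -0.43 (SE 0.06, adjusted p = 0.000185). Of 8 chaperones and export factors of new ribosomal proteins and subunits, 6 fell in 3xKD ESCs, where Grwd1, which escorts Rpl3, was at -0.76 (SE 0.05, adjusted p = 3.26e-09) and Heatr3, which escorts Rpl5, at -0.61 (SE 0.05, adjusted p = 2.49e-08). In 3xKD EpiLCs 7 of them fell, with Grwd1 at -0.71 and Heatr3 at -0.49. Of 16 other TOP mRNAs, mostly translation factors, 4 rose in 3xKD ESCs (Eef1a1 0.23 and Vim 0.21 the largest), and 3 rose and 5 fell in 3xKD EpiLCs (Tpt1 -0.29 and Eif3e -0.21 the largest falls). Of 6 host genes of small nucleolar RNAs, which also begin with TOP motifs, 4 rose in 3xKD ESCs, among them Snhg8 (0.49) and Snhg12 (0.37), and Snhg5 fell in 3xKD EpiLCs (-0.46). Snhg5 (-0.56) and Snhg1 (-0.38) differed between states.

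Of 17 genes of mTORC1 and the control of TOP mRNAs, 3 rose and 5 fell in 3xKD ESCs, with Akt1s1, the PRAS40 inhibitor, at -1.04 and the S6 kinase Rps6kb1 at -0.71. In 3xKD EpiLCs 3 rose and 6 fell, with Akt1s1 at -0.65 and Rps6kb1 at -0.62. Of this list 47.1% passed in ESCs and 52.9% in EpiLCs, beside 51.3% and 49.1% of genes of at least 1 CPM. Of 11 factors known at ribosomal protein promoters, 2 rose and 7 fell in 3xKD ESCs, led by Myc (-2.10) and Mycn (-1.05), and 7 fell in 3xKD EpiLCs, led by Mycn (-1.81) and Gabpb2 (-0.71). In the Neg transition 6 of them rose and 1 fell, with Myc at 3.61. These are RNA levels, and activity of the kinase complex or of the factors was not measured. The 78 mitochondrial ribosomal protein genes, which build the ribosome of the mitochondrion, had a median of -0.13 in 3xKD ESCs, with 8 higher, 24 lower and 23 above 0, and a median of -0.26 in 3xKD EpiLCs, with 4 higher and 39 lower. Of these 78 genes 41.0% passed in ESCs and 55.1% in EpiLCs, beside the same 51.3% and 49.1%. Their counts in the transition were 21 higher and 10 lower in Neg cells and 7 higher and 19 lower in 3xKD cells. Of the 320 annotated pseudogenes named after a member, 37 had a mean of at least 1 CPM, of which 3 passed in 3xKD ESCs and 1 in 3xKD EpiLCs, all higher.

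The estimated counts were spread over 481 annotated transcripts of the 82 genes, of which the protein-coding ones held 75.2 to 76.4% of the counts per library, retained-intron transcripts 11.3 to 11.9% and transcripts marked for nonsense-mediated decay 4.88 to 5.63%. Single-end reads of these short genes seldom tell transcripts apart, so the division is uncertain. Single calls were followed on protein-coding transcripts alone for the 5 largest changes per comparison and direction and those past the fold limit. Among these a call ended or a direction turned for 4 genes, Rpl24, Rps26, Rpl37a and Rpsa, whose rise in the 3xKD transition did not pass. Other genes named above were not followed singly. Protein-coding transcripts held 42.1, 43.0, 39.1 and 32.7% of the Rpl24 counts in Neg ESCs, 3xKD ESCs, Neg EpiLCs and 3xKD EpiLCs, and on these alone the log2 difference was 0.62 in ESCs and 0.21 in EpiLCs, no longer past the test in either. On protein-coding transcripts alone the Neg transition of Rps26 was -0.57 (0.19 over all transcripts), where these held 0.476 to 0.915% of its counts by group. The 3xKD transition of Rpl37a was 0.23 (-0.32 over all transcripts), where these held 12.6 to 19.0% of its counts.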

How the data were processed

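RNA was rRNA-depleted, made into directional libraries and sequenced from 1 end, by the study's methods (the labels name polyA RNA). The authors trimmed reads with Trim Galore 0.6.7, mapped them to GRCm39 with STAR 2.7.9a and quantified transcripts with Salmon 1.10.1. The deposited tables hold, per transcript, the authors' estimated counts (not normalized) and TPM (scaled by the authors' quantifier for length and library total), both with a preset fragment length.

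Here the transcripts' estimated counts were added up by gene, then rounded. The 25446 genes whose total reached 10 counts were tested in 1 fit of the 4 groups and 12 libraries with edgeR 4.0.16 in R 4.3.3 (TMM factors, quasi-likelihood test, Benjamini-Hochberg adjustment over all 25446 genes, limit 0.01). The fold limit was 0.58 on the log2 scale. The SE is the log2 fold change divided by the square root of F, and CPM used TMM library sizes. TPM served for levels between genes and for shares. The fit was checked on data with known changes. The members and lists were chosen with earlier results of these data known. Genes with values are, per comparison, the 5 largest changes past the limit in each direction, those past the fold limit, the 5 highest and lowest by TPM, the paralogs and members of the role lists. From other lists the 2 largest changes are named, and Rps27l, Snhg1 and the Rplp0 and Rpl3l values were added after values were seen. Alternatives were DESeq2 1.42.0, other scalings and filters, transcript-length offsets, a replicate block, robust estimation, protein-coding transcripts, other limits and each library left out. 1 member is in the counts and medians but is not reported by name or level. No replicate pair was a repeat of 1 library (chi-square per degree of freedom 2.99 to 18.4). Counting strand rests on the library protocol, so overlapping genes and near-identical copies are uncertain.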

Additional observations from a re-analysis of the deposited data

Results flagged for a closer look

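The test of the difference between states itself picked out 2 genes, those with a 3xKD effect that differed between EpiLCs and ESCs in edgeR's quasi-likelihood test: Rpl11 (-0.21, SE 0.05, adjusted p = 0.00643) and Rpl7 (-0.17, SE 0.04, adjusted p = 0.00923), both lower in EpiLCs. These are 2 of 80 genes, beside 5.27% of all genes tested, and the call of Rpl11 was lost under 10 alternatives and that of Rpl7 under 12, most of them with 1 library left out. For Rpl7 every 3xKD library was above every Neg library in ESCs and below every Neg library in EpiLCs, but by edgeR Rpl7 passed in neither state alone. Groups of 3 libraries are too small for a test of single outlying samples.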

How the results depend on the processing

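Genes higher in 3xKD ESCs numbered 20, and 32 with upper-quartile factors, 41 without the count filter, 13 with transcript-length offsets, 41 at an adjusted p under 0.05 and 12 to 41 with 1 library left out (13, 12, 13 and 13 without Neg ESCs replicate 2, Neg ESCs replicate 3, 3xKD ESCs replicate 2 and 3xKD ESCs replicate 3, and 41, 32 and 40 without Neg EpiLCs replicate 1, Neg EpiLCs replicate 2 and 3xKD EpiLCs replicate 3). All genes tested moved too, from 3982 higher and 4066 lower to 4227 and 3905 with upper-quartile factors and 4315 and 3780 without Neg EpiLCs replicate 1. The 1 lower ribosomal protein gene became 2 with DESeq2 and 3 on protein-coding transcripts, and the 2 called higher became 1 on protein-coding transcripts, 0 with a log2 limit of 1, 0 without chromosome 16 and 0 to 2 with 1 library left out. In EpiLCs the 12 higher became 24 with library size alone, 29 without the filter, 19 at an adjusted p under 0.05 and 6 to 16 with 1 library left out (7, 6 and 7 without Neg replicate 2, Neg replicate 3 and 3xKD replicate 3). The 1 lower became 8 with DESeq2, 8 at an adjusted p under 0.05, 2 with the replicate block, 2 with robust estimation, 2 on protein-coding transcripts, and 0 with library size alone, without the filter, with length offsets or without Neg replicate 1, Neg replicate 3, 3xKD replicate 1 or 3xKD replicate 2 (0 to 1 with 1 library left out). An adjusted p under 0.05 called 1 higher, and the median of 0.06 became 0.11 with library size alone and 0.01 to 0.10 with 1 library left out. The median of all genes tested moved from 0.032 to 0.091 with library size alone. In the Neg transition the 6 higher became 15 with upper-quartile factors, 10 without the filter and 4 to 10 with 1 library left out (10 without 3xKD EpiLCs replicate 3). The 15 lower became 6 with upper-quartile factors, 5 with length offsets and 6 to 15 with 1 library left out (9 without 3xKD ESCs replicate 1 and 6 without Neg EpiLCs replicate 2), and 1 was called lower with library size alone (0 to 1 with 1 library left out, 1 without Neg ESCs replicate 1). Its median of -0.03 turned to 0.048 with upper-quartile factors, 0.022 with length offsets, 0.0044 without 3xKD ESCs replicate 1, 0.024 without Neg EpiLCs replicate 2 and 0.0041 without 3xKD EpiLCs replicate 3 (-0.068 to 0.024 with 1 library left out), while the median of all genes tested moved from 0.011 to 0.093, 0.051, 0.050, 0.046 and 0.048 in the same settings. In the 3xKD transition the 1 higher became 2 with DESeq2, 3 with RLE factors, 4 with upper-quartile factors, 3 with library size alone, 3 with filterByExpr, 4 without the filter, 0 with length offsets, 2 with the replicate block, 2 with robust estimation, 2 on protein-coding transcripts, 3 at an adjusted p under 0.05 and 1 to 2 with 1 library left out. Its 24 lower became 14 with upper-quartile factors, 14 with length offsets, 37 at an adjusted p under 0.05 and 19 to 30 with 1 library left out, its median of -0.10 became -0.029, -0.040 and -0.13 to -0.07 (upper-quartile, length offsets, 1 library left out), 1 was called higher on protein-coding transcripts, and the 1 called lower became 2 on protein-coding transcripts and 0 with a log2 limit of 1.

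In the difference between states the 0 higher became 1 with DESeq2, library size alone, no filter or an adjusted p under 0.05. The 2 lower became 8 with DESeq2, 1 with RLE factors, 4 with upper-quartile factors, 0 with library size alone, 0 with length offsets, 1 with the replicate block, 5 with robust estimation, 9 at an adjusted p under 0.05 and 0 to 6 with 1 library left out. Its median of -0.07 turned to 0.0064 with library size alone, where the median of all genes also moved from -0.00096 to 0.07 and their split from 1211 higher and 1342 lower to 1522 and 824, and was -0.13 without 3xKD EpiLCs replicate 3 (-0.13 to -0.038 with 1 library left out). With named pseudogenes summed in, the shares of counts were 5.13% in Neg ESCs, 5.49% in 3xKD ESCs, 4.86% in Neg EpiLCs and 5.22% in 3xKD EpiLCs, and those of the 80 genes alone by TPM were 7.73%, 7.62%, 8.94% and 8.29%. Rps26 (-0.57 in the Neg transition) and Rpl37a (0.23 in the 3xKD transition) changed sign on protein-coding transcripts. Causes were not tested. Single genes followed under the alternatives were the 5 largest changes per comparison and direction and those past the fold limit. Of their values 636 kept their call, 80 kept their direction but lost the call and 2 changed sign. Replicate numbers did not pair the libraries: deviations of same-numbered libraries of different groups correlated between -0.158 and 0.123 (median -0.0166, 18 pairs), and 0 of 12 libraries correlated best with their own number, so the replicate block shares only a number. Of the genes with an observed log2 difference under 0.2 in size, 12 of 66 passed in 3xKD ESCs, 3 of 66 in 3xKD EpiLCs, 9 of 66 and 10 of 59 in the Neg and 3xKD transitions, and 1 of 76 in the difference between states. Their median SE was 0.046 in each group comparison and 0.065 in the difference between states. These genes were picked by their observed difference, so the counts cannot give how often a true difference of this size is found. Genes that did not pass may still differ.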
